A study of Mus musculus with 5 samples.

Results

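The long intergenic noncoding RNAs (lincRNAs) of the mouse heart at embryonic day 10.5 were described from Tag-seq libraries. The members were chosen by a rule on annotation and abundance. A gene was taken when GENCODE gives it the type lincRNA, when its transcripts are linked to RefSeq, and when tags matching the sense strand of that gene alone summed to at least 50 over the 5 libraries. Of 1108 RefSeq-linked lincRNA genes, 36 had no tag of their own, 902 had one that was not listed in any library, 98 had listed tags that summed to under 50, and 72 passed. These 72 stand among 11177 genes of all types that passed the same minimum. The minimum was reached by 51 members on the wild-type libraries alone, and the other 21 needed the tags of the deepest library, that of the *Twist1* null. The members just inside the minimum were *C920006O11Rik* with 52 tags, *6720483E21Rik* and *3830432H09Rik* with 51 each and *4833419F23Rik* with 50. *Gm6313* with 48 tags, *AI504432* and *Gm5532* with 47 each and *Gm36738* with 46 lay just outside. Because the summed tags chose the members, a scarce gene could pass through 1 library in which it was high, so the counts of members given here describe those that passed and support nothing further.

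The study compared the tissues from which heart valves form with the chambers. Wild-type C57BL/6 embryos (C57BL/6J in the study's methods) gave the atrioventricular canal (AVC), the outflow tract (OFT), the atria and the ventricles. The AVC of embryos without a functional copy of *Twist1*, a transcription factor of the cushion mesenchyme, gave the fifth library, on an ICR background. The null allele is carried by the whole embryo, not by the cushion alone. The wild-type and null libraries also differ in strain, so strain and genotype cannot be told apart. Each library pooled tissue from at least 3 litters at Theiler stage 17, and each condition had 1 library. Every comparison therefore sets single libraries against each other, and no spread between embryos was measured. The listed tags summed to 6075421 in AVC, 5267618 in OFT, 4666514 in atria, 4223810 in ventricles and 12977237 in null AVC. A level is given in tags per 1000000 listed tags (TPM). A tag type, meaning 1 distinct tag sequence, is listed only above 5 tags, so the smallest level that could be seen was 0.988 TPM in AVC, 1.14 in OFT, 1.29 in atria, 1.42 in ventricles and 0.462 in the null. Intervals of 95% are exact and cover counting error only, since PCR copies were not told from separate molecules.

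The labels were checked first. *Twist1* stood at 918 TPM in AVC, 299 in OFT, 63.4 in atria, 55.9 in ventricles and 4.55 in null AVC. The null library was thus 202-fold below the wild-type AVC for the gene its label names (edgeR exact test, p = 2.61e-15). Markers of cushion mesenchyme, led by *Col3a1*, summed to 2671 TPM in AVC and 3363 in OFT, against 241 in atria, 233 in ventricles and 539 in null AVC. *Isl1*, a gene of the second heart field, was at 72.9 TPM in OFT, 2.30 in AVC, 1.50 in atria and 3.08 in null AVC, with none listed in ventricles. It comes from a list of 6 markers of neural crest and second heart field, 4 of which had no listed tag in OFT. Of that list *Fgf10* was at 6.45 TPM in OFT and 0.988 in AVC, and *Sox10* was at 1.98 in AVC with none listed in OFT. The noncoding label was checked too. All 72 members matched a RefSeq gene record, 69 of them as a long noncoding RNA. *1810058I24Rik* and *D930016D06Rik* are protein-coding in RefSeq, where the first carries the synonym *Stmp1*, and *4632415L05Rik* is a transcribed pseudogene.

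A lincRNA is an RNA polymerase II transcript with no known protein product, made from a gene that lies apart from coding genes. Some stay in the nucleus, where *Xist* coats the inactive X chromosome, *Neat1* scaffolds paraspeckles and *Malat1* lies in nuclear speckles. Others are the spliced remains of genes whose introns hold small nucleolar RNAs, and a few lie in imprinted domains, where 1 parental copy is silent. *H19* and *Meg3* are such imprinted RNAs, expressed from the maternal chromosome, in domains whose paternal copies express the growth genes *Igf2* and *Dlk1*. In the heart, lincRNAs such as *Bvht* (Braveheart) are known from work on the commitment of cells to the cardiac lineage.

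Each RNA was seen through its tags, the 17 bases that follow a CATG, the site cut by NlaIII. The most frequent tag of the members that the comparisons turn on is printed with the site in capitals, so that each level can be traced to the molecule counted. Coordinates are of GRCm38. The *H19* tag lies at chr7:142575592-142575612 on the minus strand in exon 5 of 5. That of *Meg3* is at chr12:109571691-109571711 and that of *Mirg* at chr12:109749265-109749285, both on the plus strand and in the last exon. The 3'-most *Malat1* tag is at chr19:5795886-5795906 and the *Neat1* tag at chr19:5842702-5842722, both on the minus strand of single-exon transcripts.
H19: CATGccctacttcatcctttg
Meg3: CATGgtgctttcaataaattt
Mirg: CATGtttcaactcccacccca
Malat1: CATGaggccattacatttttc
Neat1: CATGagtgctttgccactgaa
The *Xist* tag lies at chrX:103482699-103482719 on the minus strand in exon 1 of 7. *Snhg6* was read at chr1:9942101-9942121 on the minus strand in exon 4 of 4. *2900097C17Rik*, which RefSeq names *Norad*, was read at chr2:156388205-156388225 on the minus strand in its only exon.
Xist: CATGgatacctgctttttgta
Snhg6: CATGaacaaagtcaagaagcc
2900097C17Rik: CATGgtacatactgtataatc
The remaining sequences belong to less studied RNAs with large differences between libraries. *5430416N02Rik* was read at chr5:100429124-100429144 in exon 2 of 5 and *Gm5914* at chr8:105624446-105624466 in exon 2 of 2, both on the minus strand. *5430431A17Rik* was read at chr7:44484824-44484844 on the plus strand in exon 1 of 2, and *Platr26* at chr2:71730917-71730937 on the plus strand in exon 4 of 4. *Gm14005*, which RefSeq names *Morrbid*, was read at chr2:128372128-128372148 on the minus strand in exon 2 of 2.
5430416N02Rik: CATGagagaacgctttttctg
Gm5914: CATGagaaagaagagtgtgaa
5430431A17Rik: CATGgctaagactgagtccag
Platr26: CATGagccttggcagatttgg
Gm14005: CATGtcttgatcctttcttca

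A single RNA made up most of the lincRNA signal. *H19* stood at 5213 TPM in AVC, 7249 in OFT, 2698 in atria, 2352 in ventricles and 3346 in null AVC, which was between 68.0 and 74.8% of all member tags in each library. The members together summed to 7026 TPM in AVC, 9691 in OFT, 3716 in atria, 3457 in ventricles and 4702 in null AVC. Without *H19* the sums were 1813, 2442, 1017, 1105 and 1356 TPM in the same order, so at these totals both valve-forming regions of the wild type stood above the chambers with or without it. With TMM normalization, which rescales libraries on the bulk of their genes, the log2 ratio of the sums to the summed chambers went from 0.97 to 0.02 in AVC and from 1.43 to 0.58 in OFT. Without *H19* it went from 0.78 to -0.17 in AVC and from 1.21 to 0.35 in OFT, so the direction in AVC turned. A transcript gives about 1 tag whatever its length, so these levels were not scaled by length, and levels of different genes are compared as tags per transcript.

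After *H19* the levels dropped steeply. Only 5 members had a mean of at least 100 TPM over the libraries, 54 had a mean under 10, and the median of the members' means was 4.29 TPM against 17.2 for all genes with at least 50 tags. *Snhg6*, a host of small nucleolar RNAs, was the one abundant member with its highest levels in the chambers, at 227 TPM in AVC, 231 in OFT, 573 in atria, 650 in ventricles and 144 in the null. *Meg3* had 339 TPM in AVC, 1065 in OFT, 14.8 in atria, 14.2 in ventricles and 270.5 in the null, the widest span among the abundant RNAs. *2900097C17Rik* (*Norad*), an abundant cytoplasmic RNA that binds Pumilio proteins, was at 325, 212, 94.7, 65.1 and 241 TPM in the same order. *1810058I24Rik*, the gene that RefSeq counts as coding, was at 141, 130, 50.6, 62.5 and 186 TPM and was the only one of these 5 that was highest in the null.

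**Figure D1:**
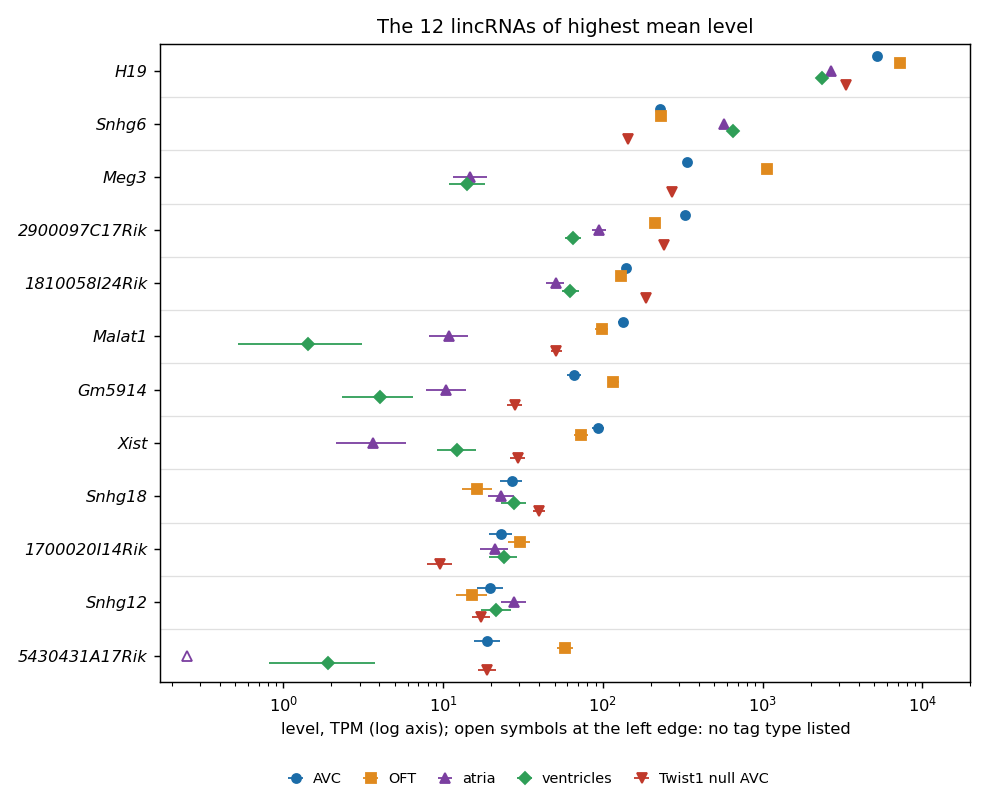
Levels of the 12 lincRNAs with the highest mean, in TPM on a log axis, with 1 symbol per library, bars for the 95% counting interval and an open symbol where no tag type was listed. *H19* lies above every other member in each library, and *Meg3*, *Malat1*, *Gm5914* and *Xist* lie lower in atria and ventricles than in the other libraries.

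The next members were *Malat1*, *Gm5914*, *Xist*, *Snhg18*, *1700020I14Rik*, *Snhg12* and *5430431A17Rik*. *Snhg18* varied little, from 16.3 TPM in OFT to 39.8 in the null. *Snhg12* ranged from 15.2 TPM in OFT to 27.6 in atria. *1700020I14Rik*, which RefSeq names *Oip5os1* and which is known as Cyrano, was at 23.0 TPM in AVC, 30.2 in OFT, 23.9 in ventricles and 9.56 in the null, and its 98 atria tags put it a little below the AVC. None of these 3 RNAs was called in any of the 5 comparisons. Within a library the order of single members close in level, such as *Snhg18* and *1700020I14Rik* in AVC at 26.8 and 23.0 TPM, rests on counting error alone.

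The number of members seen also differed. There were 67 in AVC, 67 in OFT, 49 in atria, 46 in ventricles and all 72 in the null. All 5 libraries held 36 members. Another 16 had no listed tag in either chamber library. Those libraries are the shallowest of the 5, and with the smallest detectable level at 1.29 and 1.42 TPM such a gene was not detectable at this depth, which does not show that it is absent.

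The AVC was then set against the summed atria and ventricles to ask which lincRNAs differ between the valve-forming canal and the chambers. A gene with an unadjusted p under 0.05 in the two-sided exact test of edgeR is called, with the study's dispersion of 0.12. Of 71 members tested, 34 were called higher in AVC and 6 lower. Over all 12503 genes tested, 43.4% were called higher and 8.12% lower, and over the genes of any type with at least 50 tags 42% and 6.6%. The members' median log2 ratio was 1.59 against 1.23 for all genes, and with genes missing on 1 side set at their bound it was 1.03 against 0.867. For the OFT against the same chamber libraries, 32 of 70 members were called higher and 6 lower, where 40.6% and 8.88% of all genes were, and 38.8% and 7.75% of those with at least 50 tags. Their median log2 ratio was 1.42 against 1.07. Both comparisons share the chamber libraries, so their calls are not independent of each other. Next, 5 tags were set for each tag type that a library does not list, a setting chosen after seeing the data. This gave 18 members higher and 5 lower in AVC, where 22.6% and 4.66% of all genes were. Among the 18, *2900076A07Rik* (exact p = 0.0485) had not been called before. In OFT the same setting left 15 higher and 3 lower, where 20.6% and 4.86% of all genes were.

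Markers of several cell types moved with these calls. Of 13 cardiomyocyte markers, 9 were called higher in AVC (median log2 ratio 2.21) and 8 in OFT (2.01), and 1 was called lower in AVC. They summed to 25850 TPM in AVC, 28052 in OFT, 8898 in atria and 24591 in ventricles, led by *Actc1* in each library. Of 12 cushion mesenchyme markers 11 were called higher in each region, of 11 endothelial and endocardial markers 5 were with 1 lower in AVC, and all 8 erythroid markers found were called lower in both. Of 6 epicardial markers, 1 was called higher in each region, and 3 were called lower in OFT (median log2 ratio -1.51). The part of these cell types in the lincRNA calls was not tested.

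**Figure D2:**
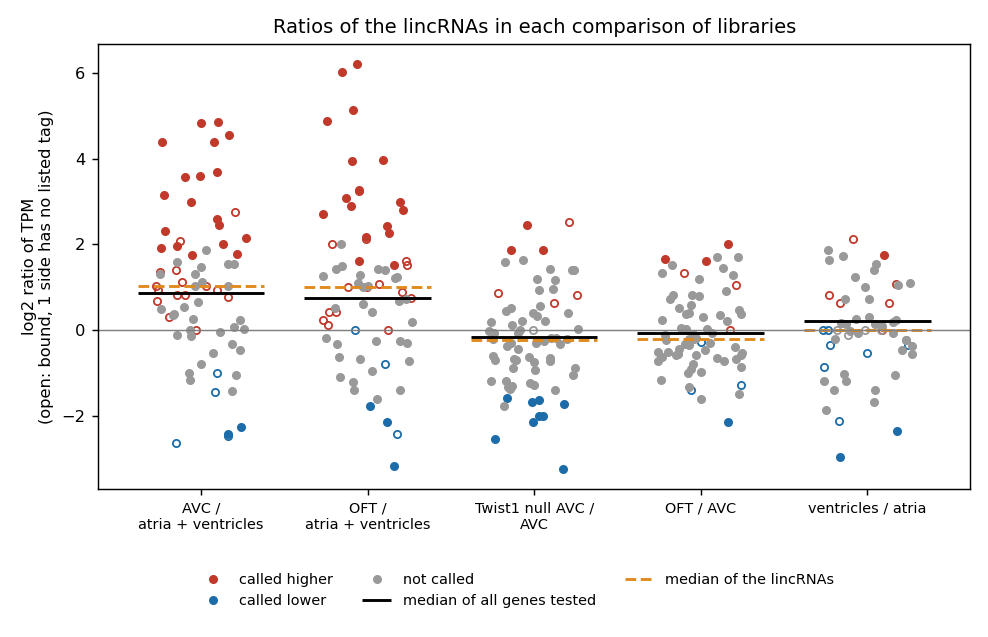
The log2 ratio of TPM of each member in the 5 comparisons, 1 point per gene, coloured by its call, with a solid line at the median of all genes tested and a dashed one at that of the lincRNAs. Open points have no listed tag on 1 side and stand at their bound, as they do in both medians, and the members spread on both sides of the solid line in every comparison.

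These shares move with the scaling of the libraries. TMM normalization lowers the median log2 ratio of all genes by 0.95 in the AVC comparison and by 0.85 in that of the OFT. With it 24 members were higher and 11 lower in AVC, where 25.6% and 17.5% of all genes were. In OFT 26 were higher and 12 lower, where 26.2% and 17.7% of all genes were. Over all genes the share of calls that were higher fell from 84.2 to 59.4% in AVC and from 82.1 to 59.7% in OFT. Haemoglobin tags took 22.0% of the listed tags in atria and 4.75% in ventricles, against 0.367% in AVC and 0.433% in OFT, and the part of this in the results was not tested beyond the scaling. The chamber tags also lay nearer the transcript end, at a median of 89 bases in atria and 185 in ventricles against 280 in AVC and 305 in OFT. In whole tissue, fewer cells of a type and less RNA per cell cannot be told apart.

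The imprinted RNAs were set beside the coding genes of their domains. The imprinted list held 12 symbols, 1 of which (*Gm47283*) is protein-coding in GENCODE and lies on chromosome Y. Of the 12 symbols 3 were members, and 2 of these 3 were called higher in AVC and all 3 in OFT, where 43.4% and 40.6% of all genes were. *Meg3* was 23.3-fold higher in AVC than in the chambers (95% interval 19.5 to 28.1, edgeR exact test p = 5.64e-08). In the OFT it was 73.4-fold higher (61.6 to 88.1, exact p = 6.56e-12). *Mirg*, a microRNA host that follows *Meg3* on chromosome 12, had 2.80 TPM in AVC, 9.11 in OFT and 1.85 in the null, with none listed in either chamber library. It was at least 1.24-fold higher in AVC (exact p = 4.87e-04) and at least 4.05-fold higher in OFT (exact p = 4.94e-07), where the bound sets each missing tag type at 5 tags. With such a fill in the test, a setting chosen after seeing the data, the AVC call of *Mirg* was lost (1.61-fold, exact p = 0.462) and its OFT call held. *H19* was 2.86-fold higher in OFT (2.81 to 2.91, exact p = 0.0386), a ratio 0.45 above the median of all genes on the log2 scale. In the AVC its ratio of 2.06 was not called (exact p = 0.151) and lay 0.19 below that median. The *H19* call in OFT was lost with TMM normalization, DESeq2 size factors, a dispersion of 0.4, totals without haemoglobin and p-values adjusted over all genes.

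**Figure D3:**
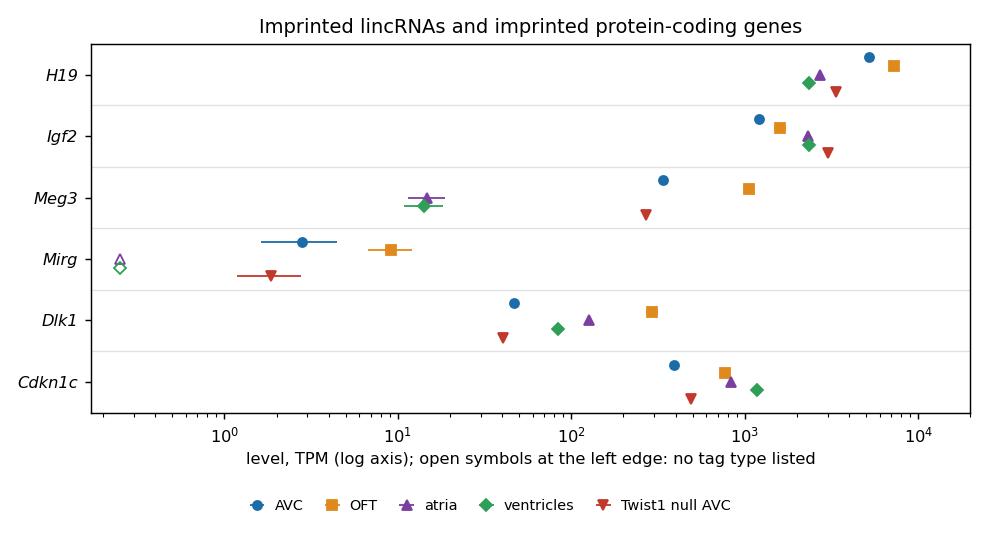
Levels of the imprinted RNAs *H19*, *Meg3* and *Mirg* and of the imprinted coding genes *Igf2*, *Dlk1* and *Cdkn1c*, in TPM on a log axis, 1 symbol per library. Bars of 95% counting intervals are drawn for *H19*, *Meg3* and *Mirg* only, and symbols are open where no tag type was listed. Among the wild-type libraries *Igf2* is lowest in AVC, where *H19* exceeds it 4.32-fold, and *Meg3* and *Dlk1* are both highest in OFT.

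The levels of the coding partner of *H19* had another order of the libraries. *Igf2*, which encodes an embryonic growth factor and lies in the domain of *H19*, was at 1207 TPM in AVC, 1591 in OFT, 2323 in atria, 2332 in ventricles and 3033 in null AVC, and was called in none of the comparisons. There were therefore 4.32 *H19* tags per *Igf2* tag in AVC (4.21 to 4.43) and 4.56 in OFT (4.45 to 4.67). The same ratio was 1.16 in atria, 1.01 in ventricles and 1.10 in null AVC, so the null AVC value lay between those of the chambers. The intervals of these ratios cover counting error alone, and each ratio rests on 1 library. The null AVC also differs from the wild-type AVC in strain. Without tags that begin with T the 5 ratios were 4.37, 4.64, 1.18, 1.02 and 1.09. *Dlk1*, the coding gene of the *Meg3* domain, was at 46.9, 292, 126, 84.3 and 40.6 TPM. With *Meg3* there were 7.22 *Meg3* tags per *Dlk1* tag in AVC, 3.65 in OFT, 0.117 in atria, 0.169 in ventricles and 6.66 in the null. *Rtl1*, the other paternally expressed gene there, was listed only in OFT, at 1.14 TPM.

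The list of nuclear body and chromatin RNAs held 10 symbols, 5 of them members by GENCODE symbol, and 4 of the 5 were called higher in AVC and in OFT, where 43.4% and 40.6% of all genes were. It also names *Norad*, the member *2900097C17Rik*, which was called in AVC (4.03-fold, exact p = 0.00712) and not in OFT. Its AVC call was lost with TMM normalization, DESeq2 size factors and a dispersion of 0.4, and it gained a call in OFT in 4 of the alternatives. *Neat1* had 15.3 TPM in AVC, 6.83 in OFT and 3.85 in the null, and no chamber library listed it. Its level was at least 6.80-fold higher in AVC (exact p = 5.96e-09) and at least 3.04-fold higher in OFT (exact p = 3.37e-06). *Malat1* stood at 134 TPM in AVC, 98.1 in OFT, 10.9 in atria, 1.42 in ventricles and 51.1 in the null. This was 20.9-fold higher in AVC (15.9 to 27.8, exact p = 1.97e-07) and 15.3-fold higher in OFT (exact p = 1.87e-06) than in the chambers. The ventricle level of *Malat1* is 6 tags of 1 type, the least that the file can show. With 5 tags set for each tag type missing from a library, a setting chosen after seeing the data, the ratios to the chambers in AVC shrank to 10.9-fold for *Meg3*, 5.85-fold for *Malat1*, 7.28-fold for *5430431A17Rik* and 3.47-fold for *Xist*, all of them still called. In the OFT they shrank to 33.9-fold, 4.46-fold, 22.4-fold and 2.70-fold, and *Xist* was no longer called there (exact p = 0.0533).

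The X-linked RNAs are 3 of these 5 members. *Xist* had 93.3 TPM in AVC, 73.5 in OFT, 3.64 in atria, 12.3 in ventricles and 29.3 in the null. It was 12.0-fold higher in AVC than in the chambers (9.35 to 15.7, exact p = 1.03e-05) and 9.47-fold higher in OFT (exact p = 5.57e-05). *Ftx* and *Jpx* lie near *Xist* and are known as its regulators. *Ftx* had 6.26, 5.89 and 1.50 TPM in AVC, OFT and atria, none listed in ventricles and 7.94 TPM in the null, and it was called higher in AVC (7.94-fold, exact p = 0.00155) and in OFT. The AVC ratio of *Ftx* was 4.59-fold, and still called, when each missing tag type was set to 5 tags. *Jpx*, at 5.27, 3.61, 1.93, 1.66 and 4.55 TPM, was not called in either. *Xist* is made in female cells. The Y-linked *Ddx3y*, made in male cells, was at 70.8 TPM in AVC, 72.9 in OFT, 8.57 in atria, 8.29 in ventricles and 26.9 in the null, so tags of both sexes were present in each library. The 4 Y-linked genes on the list summed to 129 TPM in AVC, 115 in OFT, 12.0 in atria, 21.3 in ventricles and 64.7 in the null, and they did not all move alike. *Uty* was at 8.39 TPM in AVC, 6.45 in OFT, 7.10 in ventricles and 12.6 in the null with none listed in atria. *Kdm5d* was at 5.10 TPM in AVC, 2.28 in OFT, 2.14 in atria and 5.47 in the null, with none listed in ventricles. Of the 4, 3 were called higher in AVC than in the chambers and 2 in OFT, where 43.4% and 40.6% of all genes were. None of the 4 was called in the null. The sex ratio of the pools was not tested.

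The place of the tags on the transcript differed between these RNAs. The most frequent *Neat1* tag lies 18015 bases from the 3' end of the long transcript of 20771 bases, and it is also the 3'-most site of the short linked transcript of 3004 bases, 416 bases from its end. The tag cannot tell the transcripts apart. The most frequent *Xist* tag lies 17411 bases from the end of one of 17946, in the first exon. Of the *Xist* tags, 3.88% in AVC, 7.24% in OFT and 7.89% in the null came from the 3'-most site, and none in the chamber libraries did. For *Malat1* the share was 57.6% in AVC, 51.8% in OFT, 39.2% in atria, 100% in ventricles on 6 tags and 42.4% in the null. *H19* was read at its 3'-most site in 95.4% of its AVC tags, 94.6% in OFT, 99.4% in each chamber library and 82.4% in the null. Over all members the share was 89.7, 90.0, 95.9, 94.8 and 79.1% in the order AVC, OFT, atria, ventricles and null, with the 3'-most site of any linked transcript counted. From the 3'-most sites alone, *Neat1* and *Xist* were still called higher in AVC and in OFT than in the chambers, *Neat1* was still lower in the null, the *Xist* call in the null was lost (exact p = 0.455), and *Malat1* was newly called lower there (log2 ratio -1.83, exact p = 0.0147).

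**Figure D4:**
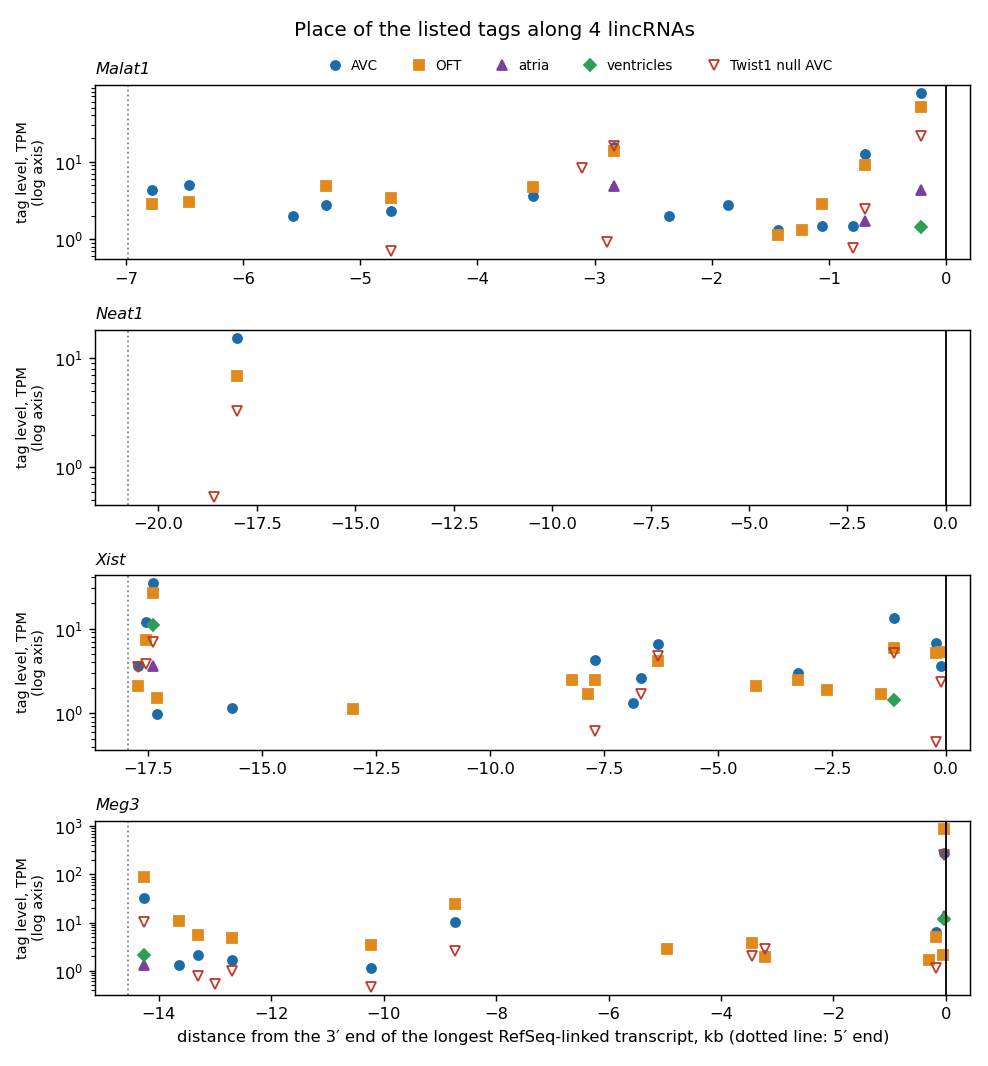
Distance of each listed tag of *Malat1*, *Neat1*, *Xist* and *Meg3* from the 3' end of the longest transcript, in kb, against the level of that tag in TPM on a log axis, with 1 symbol per library and a dotted line at the 5' end. The main tag of *Meg3* lies at the 3' end, whereas the main tags of *Neat1* and *Xist* lie 18015 and 17411 bases away from it, the former at the 3'-most site of a shorter *Neat1* transcript that is not drawn.

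Hosts of small nucleolar RNAs are a further group. These genes are transcribed for the RNAs in their introns, which guide the modification of ribosomal RNA. The list of hosts was drawn up by symbol, and GENCODE places no small nucleolar RNA inside its members *Snhg10* and *Snhg20*. It held 19 genes, 6 of them members, and 2 of these were called higher in AVC and 2 in OFT, where 43.4% and 40.6% of all genes were. None was called lower, where 8.12% and 8.88% of all genes were. *Snhg6* was 2.68-fold lower in AVC and 2.64-fold lower in OFT than in the chambers, neither of which was called (exact p = 0.0519 and 0.0558). With TMM normalization both were called (exact p = 0.00165 and 0.00268). *Snhg20*, at 10.2 TPM in AVC, 5.13 in OFT, 1.66 in ventricles and 3.08 in the null with none listed in atria, was 13.0-fold higher in AVC (exact p = 7.88e-05), or 7.48-fold with 5 tags for each missing tag type. *Epb41l4aos*, at 4.77, 3.23 and 1.08 TPM in AVC, OFT and null, was not listed in the chambers and was called higher in both regions. With 5 tags for each missing tag type its call in OFT was lost (2.84-fold, exact p = 0.107). *Snhg18*, *Snhg12* and *Snhg10* were called in neither. *Snhg10* stood at 1.81, 1.33, 4.07, 4.02 and 6.63 TPM. Of the 6 members, 1 was called higher and 2 lower in the null AVC than in the wild type, *Snhg20* alone was called between the chambers (higher in ventricles), and 0 were called between the OFT and the AVC. The chamber call of *Snhg20* rests on 7 tags in ventricles. It was lost with 5 tags for each missing tag type, at a dispersion of 0.4 and with adjusted p-values. The shares of all genes called higher and lower were 11.9% and 12.7% in the null, 11.1% and 9.03% in ventricles against atria, and 5.22% and 7.35% in OFT against the AVC.

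Several little-studied RNAs differed as much as the known ones. *5430416N02Rik* had 31.8 TPM in AVC, 39.1 in OFT, 2.14 in atria and 5.47 in the null, with none listed in ventricles. It was 28.2-fold higher in AVC (15.0 to 59.8, exact p = 2.02e-07) and 34.8-fold higher in OFT (exact p = 3.84e-08). The fill of missing tag types took these ratios to 18.7-fold and 22.9-fold, both still called. The coding gene next to it on the same strand, *Sec31a*, which encodes a coat protein of vesicles leaving the endoplasmic reticulum, was at 73.9, 66.1, 6.00, 4.26 and 29.7 TPM and was also called higher in both. *5430431A17Rik* had 18.9 TPM in AVC, 58.3 in OFT, 1.89 in ventricles and 18.8 in the null, with none in atria, and was 21.04-fold higher in AVC (exact p = 2.40e-06) and 64.8-fold higher in OFT (exact p = 8.05e-10). Its neighbour *Josd2*, a deubiquitinase gene 1876 bases away, was at 28.0, 33.6, 1.93, 6.87 and 32.4 TPM. *Gm5914* had 66.2, 116, 10.5, 4.02 and 28.1 TPM and was 8.91-fold higher in AVC (exact p = 7.79e-05) and 15.6-fold higher in OFT (exact p = 1.48e-06). It overlaps *Ctcf*, the gene of an insulator-binding protein, on the opposite strand, and *Ctcf* with 71.9, 55.2, 31.1, 29.1 and 53.6 TPM was called in neither. *Gm20300*, chosen after its values were seen, was at 19.6 TPM in AVC, 19.9 in OFT, 1.29 in atria and 7.86 in the null, with none in ventricles. Its ratio to the chambers in AVC was 29.0-fold on 6 chamber tags of 1 type, and 5.83-fold with the fill of missing tag types.

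A few RNAs were higher in the chambers. *Redrum*, an RNA known from erythroid cells, had 7.71 TPM in atria, 2.13 in ventricles and 0.69 in the null, with none listed in AVC or OFT. It was at least 6.15-fold lower in AVC (exact p = 1.16e-05) and at least 5.33-fold lower in OFT (exact p = 1.95e-05). Erythroid marker genes summed to 215426 TPM in atria, 46733 in ventricles, 27379 in the null, 3087 in OFT and 2426 in AVC, the same order of the libraries among those in which *Redrum* was listed. The part of blood cells in the *Redrum* difference was not tested. *Gm14005* (*Morrbid*), known as a regulator of the lifespan of myeloid cells, had 13.97 TPM in ventricles, 1.52 in OFT and 3.85 in the null, with none listed in AVC or atria. *1810044D09Rik* was at 2.14, 1.14, 6.21, 14.7 and 5.70 TPM, 4.78-fold lower in AVC (exact p = 0.00839) and 8.99-fold lower in OFT (exact p = 6.55e-04) than in the chambers. *Gm30108* and *Gm3716* were not listed in AVC and had 3.43 and 1.71 TPM in atria and 5.68 and 4.97 in ventricles.

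Few RNAs named for the heart were members. The list of heart and muscle RNAs held 18 symbols, of which *Bvht* and *Pvt1* were members under the listed symbol. Of the others, 5 have another gene type, 6 are not in the annotation under that symbol and 1 has no RefSeq link. A further 3 had no listed tag and 1 had under 50 tags, so most of the list fell outside the rule by annotation and not by level. The list also names *Oip5os1* and Cyrano, which are both the member *1700020I14Rik*. None of the 31 genes on the list of RNAs beside developmental transcription factors was a member. Of those 31, 18 have another gene type, 8 are not in the annotation under that symbol and 5 had no listed tag. *Bvht* had 10.7 TPM in AVC, 13.7 in OFT, 8.57 in atria and 9.47 in ventricles, so the wild-type regions lay within a narrow range and it was called in none of the comparisons among them. *Pvt1*, which neighbours *Myc*, was at 2.30, 3.80, 2.36, 7.34 and 2.70 TPM and was not called. RefSeq synonyms name 3 further members for the heart or for a heart gene, chosen after their values were seen. *4833412C05Rik*, with the synonym *Bigheart*, was at 4.12 TPM in AVC, 10.4 in OFT, 20.4 in atria, 23.9 in ventricles and 4.47 in the null, 5.36-fold lower in AVC than in the chambers (exact p = 0.00307). *E130006D01Rik*, with the synonym *Hrtlincr5*, was at 9.88, 14.8, 4.93, 4.74 and 9.48 TPM and 3.06-fold higher in OFT (exact p = 0.0436), a call lost with the fill of missing tag types (2.64-fold, exact p = 0.0722). *5033428I22Rik*, which RefSeq names *Hdnr* (handsdown), had 12.3 TPM in AVC, 21.8 in OFT, 1.50 in atria, 4.97 in ventricles and 7.48 in the null.

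Handsdown lies 7485 bases from *Hand2*, the gene of a transcription factor of the right ventricle and outflow tract, on the same strand. It was 3.92-fold higher in AVC (2.51 to 6.29, exact p = 0.0168) and 6.93-fold higher in OFT (4.55 to 10.9, exact p = 7.15e-04) than in the chambers, where it had 28 tags. With the fill of missing tag types the AVC call was lost (2.09-fold, exact p = 0.17) and the OFT ratio was 3.21-fold (exact p = 0.0302). *Hand2* itself stood at 422 TPM in AVC, 665 in OFT, 64.1 in atria, 99.0 in ventricles and 230 in the null, 5.23-fold and 8.25-fold above the chambers and called in both. Both genes had the same order of the libraries. No test compares member pairs with other pairs, and their counts are a description. Over all members whose nearest coding gene was tested in the AVC comparison, 55 pairs, 25 members and 24 neighbours were called higher and 6 of each lower, against 43.4% and 8.12% of all genes. Member and neighbour were both higher in 12 pairs, and in 6 pairs they were called in opposite directions. In the OFT comparison there were 58 pairs, with 26 members and 24 neighbours higher and 6 members and 4 neighbours lower, against 40.6% and 8.88% of all genes. Both were higher in 14 pairs, both lower in 1, and 4 were opposite.

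MicroRNA hosts overlap the lists above. Their list held 17 genes, and the 4 members are *H19*, *Meg3*, *Mirg* and *Ftx*. In AVC 3 of them were called higher, *Mirg* only without the fill of missing tag types, and in OFT all 4, where 43.4% and 40.6% of all genes were. In the null none was called, between the OFT and the AVC *Meg3* alone was higher, and between the chambers *Ftx* alone was lower in ventricles. The shares of all genes called higher and lower in these 3 comparisons were 11.9% and 12.7%, 5.22% and 7.35%, and 11.1% and 9.03%. The chamber call of *Ftx* rests on 7 tags in atria and was lost with the fill, at a dispersion of 0.4 and with adjusted p-values.

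The OFT was next set against the AVC, which compares the valve-forming regions without the chamber libraries. Of 70 members, 6 were called higher in OFT and 4 lower, where 5.22% and 7.35% of all genes were, and 2.25% and 4.62% of those with at least 50 tags. The median log2 ratio was -0.19 against -0.10 for all genes. *Meg3* was 3.15-fold higher in OFT (2.99 to 3.31, exact p = 0.0249) and *5430431A17Rik* 3.08-fold higher (2.48 to 3.85, exact p = 0.0315). *Dlk1* was 6.23-fold higher in OFT (exact p = 5.79e-04), so the imprinted RNA and the coding gene of its domain differed the same way between these regions. *A330048O09Rik* was 4.39-fold lower in OFT (exact p = 0.0118), with 12.5 TPM in AVC, 2.85 in OFT, 15.6 in atria, 3.08 in ventricles and 6.86 in the null. Of the 10 called members, 6 were listed in 1 of the 2 regions alone. *5033406O09Rik*, with 4.18 TPM in OFT, was not listed in AVC, and *2700046A07Rik*, with 2.47 TPM in AVC, *Gm2694* and *1700102H20Rik*, each with 2.30, were not listed in OFT. The calls of *Meg3*, *5430431A17Rik* and *A330048O09Rik* were lost at a dispersion of 0.4 and with adjusted p-values, and were kept with 5 tags for each missing tag type. That fill, chosen after seeing the data, removed all 6 calls of members listed in 1 region alone (exact p from 0.0783 to 0.691). They are *5033406O09Rik*, *2700046A07Rik*, *Gm2694*, *1700102H20Rik*, *Gm14005* and *Gm30108*. After adjustment 1 member was left higher and 0 lower, against 10 members at an unadjusted p under 0.05.

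Between the chambers, 56 members were tested. In the ventricles 7 were called higher and 9 lower than in atria, where 11.1% and 9.03% of all genes were, and 10.1% and 7.15% of those with at least 50 tags. The median log2 ratio was -0.04 against 0.31. *Gm14005* was at least 4.35-fold higher in ventricles (exact p = 4.41e-07). *Xist* was 3.38-fold higher in ventricles (1.92 to 6.23, exact p = 0.0386), a call that was lost in 9 of 15 alternatives, TMM normalization (exact p = 0.0922) and 5 tags for each missing tag type (1.40-fold, exact p = 0.53) among them. *Malat1* was 7.69-fold lower there (exact p = 0.00182), on 6 tags, and its call was lost at a dispersion of 0.4, from the 3'-most site alone and with 5 tags for each missing tag type. *2700038G22Rik*, with 5.14 TPM in atria and none listed in ventricles, was at least 4.34-fold lower (exact p = 2.30e-04). *Ino80dos*, with 4.50 TPM in ventricles, and *1700096K18Rik*, with 3.32, were not listed in atria. With TMM normalization 6 members were higher and 12 lower, where 9.16% and 10.04% of all genes were. Setting 5 tags for each missing tag type left 1 higher and 2 lower, where 1.86% and 0.667% of all genes were. In 13 of the 16 called members 1 of the chamber libraries had no listed tag.

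The null AVC was last set against the wild-type AVC. All 72 members were tested, and 7 were called higher in the null and 9 lower, where 11.9% and 12.7% of all genes were, and 9.23% and 11.4% of those with at least 50 tags. The median log2 ratio was -0.23 against -0.16 for all genes. The abundant *H19*, *Meg3* and *Malat1* were not called. *H19* was 1.56-fold lower in the null (exact p = 0.375), *Meg3* 1.25-fold lower (exact p = 0.653) and *Malat1* 2.62-fold lower (exact p = 0.0590). *Malat1* was called lower in 3 alternatives, from its 3'-most site alone (exact p = 0.0147), without tags that begin with T (exact p = 0.0260) and with a dispersion of 0.05. Of the imprinted members 0 of 3 were called. In the wild-type AVC 2 of the 3 had been called higher than in the chambers, *Mirg* only without the fill of missing tag types.

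**Figure D5:**
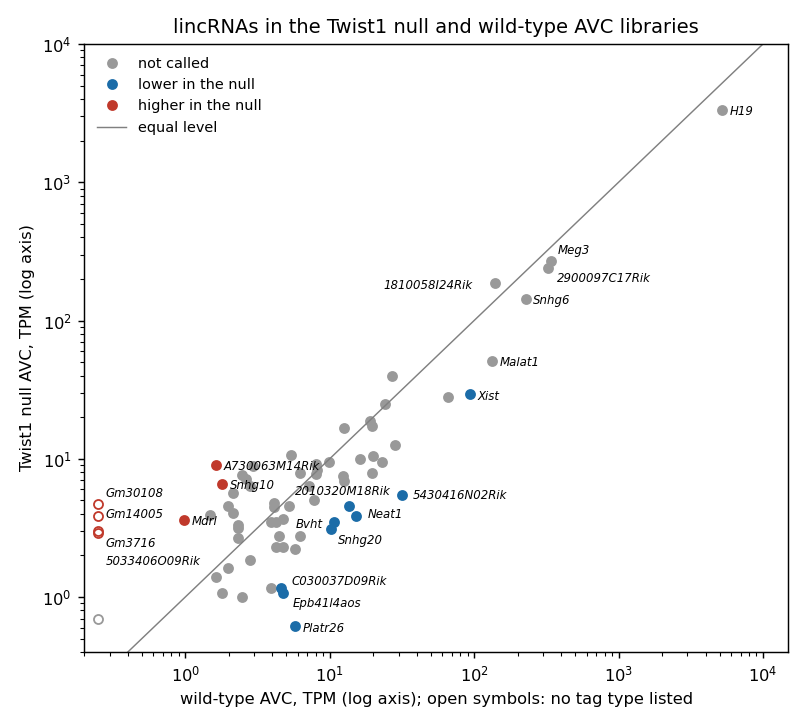
Level of each member in null AVC against the wild-type AVC, in TPM on log axes, with the called and the most abundant members named and the line of equal levels drawn. *Platr26*, *5430416N02Rik* and *Neat1* lie below the line, and the RNAs not listed in the wild-type AVC are set at the left edge.

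All 9 members called lower in the null were listed in both libraries. *Platr26* had 5.76 TPM in the wild-type AVC, 5.51 in OFT, 6.86 in atria, 2.60 in ventricles and 0.617 in the null, the lowest level of the 5. It was 9.35-fold lower in the null (exact p = 8.56e-04). It lies beside *Itga6*, the gene of an integrin chain, which at 38.5 TPM in AVC and 13.7 in the null was lower too (2.81-fold, exact p = 0.0467). *5430416N02Rik* was 5.81-fold lower (exact p = 0.00127), and *Neat1* 3.97-fold lower (exact p = 0.0127). *Epb41l4aos* was 4.43-fold lower (exact p = 0.0186), *Xist* 3.19-fold lower (exact p = 0.0243) and *Snhg20* 3.31-fold lower (exact p = 0.0325). *Bvht*, at 10.7 TPM in the wild type and 3.47 in the null, was 3.09-fold lower (exact p = 0.0409). The null calls of *Xist* and *Bvht* were each lost in 6 of 16 alternatives, and that of *Snhg20* in 5 of 16. TMM normalization, DESeq2 size factors, totals of all tags and adjusted p-values were among these for each. The remaining members called lower in the null, named after their values were seen, are *C030037D09Rik* and *2010320M18Rik*. Of 12 cushion mesenchyme markers 9 were called lower in the null, and 5 of 8 erythroid markers were called higher, with haemoglobin at 3.05% of the listed tags against 0.367% in the wild-type AVC. The part of cell composition in the lincRNA calls was not tested.

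Higher in the null were RNAs that were scarce in the wild-type AVC. *Gm30108* had 4.70 TPM in the null and none listed in the wild-type AVC, at least 5.71-fold higher (exact p = 3.68e-05). *Gm14005*, *Gm3716* and *5033406O09Rik*, at 3.85, 3.00 and 2.93 TPM in the null, were not listed in the wild-type AVC either and were at least 1.56-fold, 1.83-fold and 1.78-fold higher. *Snhg10* was 3.66-fold higher (exact p = 0.0355). *A730063M14Rik* and *Mdrl*, named after their values were seen, complete the 7. With the fill of missing tag types *Gm14005*, *Gm3716*, *5033406O09Rik* and *Snhg10* were no longer called. The other 3 of the 7 still were, where 5.49% of all genes were called higher with that fill. Of the 7, 4 had under 50 tags in the wild-type libraries and so became members only through the null library where they are high, *Gm30108* among them, and the count of calls is a description that supports nothing. Among these 7 members 6 have most of their tags from sequences that begin with T after the site, against 0 of the 9 lower ones and 16 of all 72. Within 1708 genes with both kinds of tag, those that begin with T had a log2 ratio of null to wild type 1.42 above the other tags of the same gene. When tags that begin with T were left out, 3 of the 7 were still called. *A730063M14Rik* has none of them. *Gm3716* kept 22 tags in the null. *Snhg10* kept 10 null tags at a level below the smallest that the wild-type AVC could show, so its call without them rests on the depth of the null library. *Gm14005* and *5033406O09Rik* were no longer called (exact p = 0.0619 each), *D930016D06Rik* was newly called, and *Mdrl* has no other tags. Called lower without them were also *Malat1* (log2 ratio -1.65, exact p = 0.0260) and *1700020I14Rik* (log2 ratio -1.54, exact p = 0.0446). Of the 124 null tags of *1700020I14Rik*, 72 came from a site that no wild-type library lists. Its most frequent tag stood at 21.7 TPM in the wild-type AVC and 1.93 in the null. The source of this difference was not tested. *Gm30108* has only tags that begin with T, so its ratio cannot be told apart from the shift of such tags.

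That first base differed between the other libraries as well. In the AVC comparison with the chambers, the log2 ratio of tags that begin with T was 0.92 below that of the other tags of the same gene in the median over 739 genes (a difference of -0.92), and in OFT the difference was -0.82 over 674 genes. Of the 6 members lower in AVC, 3 have mostly such tags, among them *Gm30108* with 100% and *Gm14005* with 73.5%. *Mirg*, higher in both regions, has 92.1%, *Xist* 24.1%, *Meg3* 7.25% and *Malat1* 5.66%. None of the tags of *Neat1*, *5430416N02Rik*, *5430431A17Rik*, *Gm5914* or *Platr26* begins with T.

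The scaling of the libraries moved these counts too. With TMM normalization, which adds 0.24 to the log2 ratios here, 11 members were higher and 4 lower, where 14.9% and 9.36% of all genes were. With the study's totals of all tags 12 were higher and 3 lower, where 16.5% and 8.05% of all genes were. The share of all calls that were higher went from 48.3% to 61.4% and 67.2%. The calls of *Platr26* and *Gm30108* held in every alternative that gave them a value. The other 10 named calls of this comparison, which include *Xist*, *Bvht*, *Neat1* and *5430416N02Rik*, were each lost in at least 1.

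The members share some features that the rule did not use. They were read through 205 tag types, of which 188 occur in no other GENCODE transcript of another gene, with a median of 2 types per member and a highest number of 20, and 29 members rest on 1 type alone. Symbols from clone or gene-model numbers were carried by 50 members, and 22 have given names. Small nucleolar RNAs lie inside 6 members, *2700038G22Rik* and *Gm42788* among them but not *Snhg10* or *Snhg20*, and microRNAs lie inside 7. A coding gene lies within 5 kb of 39 members, and 11 overlap one. The members that hold a small nucleolar RNA summed to 284 TPM in AVC, 269 in OFT, 629 in atria, 699 in ventricles and 218 in the null, with *Snhg6* the largest part of each sum.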

How the data were processed

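Tag-seq was made from the dissected tissues with NlaIII, and the authors deposited, for each library, the raw count of every tag type with more than 5 tags. Blood was removed by puncture and washing, per the study's methods. No normalization was applied to the deposited counts.

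Virtual tags were cut at every CATG of the 33363 RefSeq-linked transcripts of GENCODE M21 (GRCm38), after adding 20 adenines to each 3' end. A tag counted for a gene when its sense match was to that gene alone, which held for 70.7, 72.2, 73.6, 74.5 and 73.8% of the tags of the AVC, OFT, atria, ventricles and null. Uniqueness in the genome was not checked. TPM are tags per 1000000 listed tags. Other symbols, synonyms and biotypes came from RefSeq (GRCm38.p6), by symbol for 66 members and by synonym and position for 6.

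Tests were two-sided exact tests of edgeR 4.0.16 in R 4.3.3 on the counts of all genes with a tag, with the library sizes at the listed totals and the dispersion fixed at 0.12, as the study's methods give it. Genes were called at an unadjusted p under 0.05, and adjusted p-values are those of Benjamini and Hochberg over all genes. Atria and ventricles were summed as 1 chamber library. Where 1 side had no listed tag, the bound sets each missing tag type at 5 tags, and no fold is given where both sides lie within that limit. No covariate was used. Where nothing else is said, values in a row follow the order AVC, OFT, atria, ventricles and null AVC.

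The genes named are the 12 members with the highest mean TPM, the 4 called members of smallest p in each direction of each comparison, and every member on a list of imprinted RNAs, small nucleolar RNA hosts, nuclear body and chromatin RNAs, microRNA hosts, RNAs beside developmental transcription factors, or heart and muscle RNAs. The members and lists were chosen with earlier results of these data known. In all 17 alternatives to the scaling, dispersion, test, filters, sites and members were listed in advance and 1 was added after seeing the data. The scripts, in Python 3.11.15 and R with DESeq2 1.42.0 as an alternative, were tested on simulated data.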

Additional observations from a re-analysis of the deposited data

Results flagged for a closer look

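The comparisons used sense tags alone. Tags that match the reverse strand of 1 gene and the sense strand of no GENCODE transcript lie outside them, and 32 members had such antisense tags. They are given here because 12 members had at least 50 of them over the 5 libraries. No control library shows their background, so their counts are given as a description.

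*H19* had 15512 antisense tags, at 338 TPM in AVC, 538 in OFT, 107 in atria, 130 in ventricles and 738 in null AVC. Per 100 sense tags of *H19* these were 6.49, 7.42, 3.96, 5.54 and 22.1 antisense tags, the most in the null. Over all genes the same share was 8.46, 9.13, 4.06, 4.80 and 12.3, also highest in the null. *5430431A17Rik* had 1552 antisense tags, more than its sense tags, at 217 per 100 sense tags in AVC, 181 in OFT and 291 in the null.

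*Malat1* had 580 antisense tags, *1810058I24Rik* 535, *2900097C17Rik* 491 and *Meg3* 356. *1700020I14Rik* had 350, *Xist* 307 and *Snhg6* 235. *2900076A07Rik* had 109, *D930016D06Rik* 87 and *1110006O24Rik* 59. The source of the antisense tags was not tested.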

How the results depend on the processing

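No paired analysis was possible because each condition has 1 library. Comparisons with the atria or the ventricles left out were not run. The main counts of called members, higher and lower, were 34 and 6 for the AVC against the chambers, 32 and 6 for the OFT, 7 and 9 for the null AVC against the wild type, 6 and 4 for the OFT against the AVC, and 7 and 9 for the ventricles against the atria. Over the 38 named genes, 2578 values kept their direction and side of the threshold, 128 lost a call, 110 gained one and 3 changed sign. The last were values uncalled in the main setting that turned positive, and were called, from the 3'-most site alone. *Gm26619* stood at 8.02 and *1700096K18Rik* at 6.74 on the log2 scale in the null. In OFT against the AVC *Gm26619* stood at 6.58. In each case the wild-type AVC had no listed tag at that site. These 3 ratios therefore do not measure the size of a difference. No named call changed its direction.

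With at least 50 tags per gene the counts fell to 17 and 3 in AVC, 13 and 3 in OFT, 2 and 1 in OFT against the AVC, and 2 and 2 between the chambers, since fewer genes are tested. With 5 tags for each missing tag type, chosen after seeing the data, 18 were higher in AVC, 15 and 3 in OFT, 3 higher in the null, 3 and 1 in OFT against the AVC, and 1 and 2 between the chambers. With that fill 22.6% and 4.66% of all genes were called higher and lower in AVC, and 20.6% and 4.86% in OFT. In the null these shares were 5.49% and 10.3%, in OFT against the AVC 1% and 1.45%, and between the chambers 1.86% and 0.667%. With members taken on the wild-type libraries alone there were 22 and 3 in AVC, 20 and 3 in OFT, 3 higher in the null, and 1 lower in OFT against the AVC.

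TMM normalization gave 11 lower in AVC, 12 lower in OFT, and 11 and 4 in the null, where 17.5%, 17.7%, and 14.9% and 9.36% of all genes were. DESeq2 size factors gave 11, 13, and 11 and 4, where 17.9%, 17.9%, and 14.8% and 9.43% of all genes were. The totals of all tags gave 12 and 3 in the null, where 16.5% and 8.05% of all genes were. They gave 10 higher in OFT against the AVC, where 7.54% of all genes were. There the share of higher calls among all genes went from 41.5 to 57.03%. A dispersion of 0.05 gave 10 lower in OFT, 13 and 16 in the null, 11 higher in OFT against the AVC, and 13 and 15 between the chambers. A dispersion of 0.4 gave 21 higher in OFT, 4 and 1 in the null, 1 higher in OFT against the AVC, and 4 and 3 between the chambers. Adjusted p-values left 4 and 2 in the null, 1 and 0 in OFT against the AVC, and 4 and 2 between the chambers. Leaving out tags that begin with T gave 4 higher in the null, 3 of the 7 and *D930016D06Rik*. With more than 10 tags per tag type 12 were lower in OFT against the AVC, and with the libraries thinned to 1 total 8 were. The cause of these shifts was not tested beyond the settings themselves. Where a setting stands without the share of all genes, its counts of members are a description.

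Of the named calls, 13 of 21 held in every alternative that gave a value in the AVC comparison, among them *Meg3*, *Neat1*, *Malat1*, *Xist*, *5430416N02Rik*, *5430431A17Rik*, *Gm5914*, *Redrum* and *Gm14005*. In the OFT 10 of 21 held, and in the null 2 of 12, *Platr26* and *Gm30108*, the latter a member only through the null library. Between the OFT and the AVC 0 of 9 held, and between the chambers 2 of 14, *Gm14005* and *2700038G22Rik*. Of the 72 members, 54 have a mean under 10 TPM.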

Other observations

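Noncoding RNAs that GENCODE gives another gene type, or that its RefSeq link leaves out, fell outside the rule, and some were as abundant as the members. *Tug1*, a conserved RNA, stood at 251 TPM in AVC, 265 in OFT, 19.3 in atria, 36.7 in ventricles and 59.0 in the null. It was 9.11-fold higher in AVC than in the chambers (edgeR exact test, p = 4.89e-05) and 4.26-fold lower in the null than in the wild-type AVC (exact p = 0.00528). *Firre*, an X-linked nuclear RNA, was at 128, 73.1, 0, 11.4 and 61.7 TPM and was 23.7-fold higher in AVC than in the chambers (exact p = 7.69e-08). The small nucleolar RNA hosts of other types were not alike in the null. *Zfas1*, at 59.9 TPM in AVC and 194 in the null, and *Gas5*, at 33.9 and 107 TPM, were called higher (3.25-fold and 3.17-fold, exact p = 0.0220 and 0.0255). *Snhg3*, at 180 and 50.6 TPM, was called lower (3.55-fold, exact p = 0.0140). These genes were chosen after their values were seen.

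LincRNA genes without a RefSeq link numbered 4746, of which 312 had a listed tag of their own and 89 at least 50 tags. Their tags summed to 1423 TPM in AVC, 1560 in OFT, 664 in atria, 741 in ventricles and 1337 in the null. By tags summed over the 5 libraries the highest was *Gm17275* at 96.9, 98.7, 207, 247 and 254 TPM, followed by *Gm42418* at 397, 515, 13.3, 12.5 and 36.5 TPM. *Gm26669* was at 9.38, 12.7, 1.93 and 3.55 TPM in the wild-type libraries and 131 in the null.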
